A study of Danio rerio with 9 samples.

Results

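The kdm4ab knockout was compared with wild type in poly-A RNA of whole zebrafish embryos, by the columns of 6 of the 9 libraries in the series. These were the 3 libraries of kdm4ab knockout embryos and the 3 libraries of wild-type embryos. The other 3 libraries came from kdm4aa knockout embryos, and they entered the fits to share the estimate of the spread and served to test whether the knockouts differ. The study set out to find genes downstream of kdm4aa and took up cyp26a1, and the kdm4ab knockout is the paralog's knockout in the same design. The labels give the genotype of each library by the gene alone. The stage, the strain, the kind of mutation, the number of embryos pooled and whether the mutants had mutant mothers are not stated there or in the other sources used. Separate clutches are not stated for the replicates either, so the tests reflect the spread among these libraries alone, and that spread may be technical.

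KDM4 enzymes are histone lysine demethylases of the Jumonji family. They remove methyl groups from lysines of histone H3 that mark heterochromatin and transcribed gene bodies, and their loss is generally studied for effects on silencing, transcription and development. Zebrafish carry kdm4aa and kdm4ab as a pair of genes related to mammalian KDM4A. In the early fish embryo, transcription of the zygotic genome is followed by the specification of mesendoderm, ectoderm, the enveloping layer that covers the embryo and the yolk syncytial layer beneath it.

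Library totals were 46156237, 27894551 and 39039825 counts in kdm4ab knockout replicates 1, 2 and 3, and between 38509567 and 45298764 in wild type. At least 1 count was found for 22396, 14247 and 22025 genes in the kdm4ab knockout libraries, against 22873 to 23019 genes in wild type. Replicate 2 of the kdm4ab knockout stands apart. Among 3451 genes at 1 to 5 CPM (counts scaled by library size) in replicates 1 and 3, it had no count for 38.8%, against 0.956 to 1.27% in wild-type libraries. Its Pearson correlation over log2(CPM + 1) was 0.888 and 0.875 with replicates 1 and 3, which correlated at 0.995 with each other. Cytosolic ribosomal protein genes summed to 5544, 25476 and 4723 CPM in kdm4ab knockout replicates 1, 2 and 3, against 6319 to 6584 CPM in wild type. The biological coefficient of variation was 47.5% with replicate 2 and 13.1% without it. What sets this library apart was not tested. Each comparison was therefore fitted once with all libraries and once without replicate 2, and statements rest on genes called in both fits. A gene was called in both when edgeR's quasi-likelihood test gave a Benjamini-Hochberg adjusted p under 0.05 and the same sign in each fit. Unless stated otherwise, log2 fold changes (kdm4ab knockout over wild type) and standard errors (SE) are from the fit without replicate 2, and values of the 3 libraries of a group are in CPM in the order of replicates 1, 2 and 3.

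**Figure D1:**
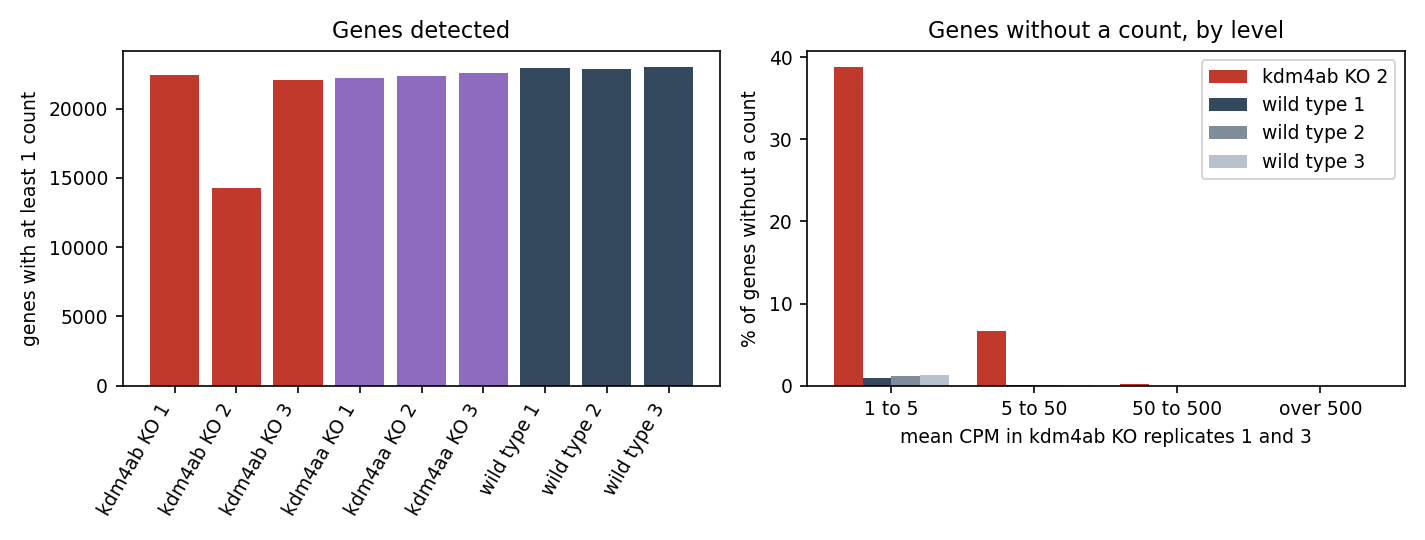
Left, number of genes with at least 1 count in each library. Right, percent of genes without a count in kdm4ab knockout replicate 2 and in the 3 wild-type libraries, by the mean CPM of the gene in kdm4ab knockout replicates 1 and 3. Replicate 2 lacks 38.8% of genes at 1 to 5 CPM and 6.67% at 5 to 50 CPM.

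The targeted gene was low in all 3 knockout libraries. kdm4ab stood at 2.38, 0 and 2.22 CPM in kdm4ab knockout libraries, against 127, 168 and 121 CPM in wild type and 172, 148 and 154 CPM in kdm4aa knockout libraries. The groups did not overlap, and the log2 change was -5.91 (SE 0.174, n = 2 and 3; edgeR adjusted p = 9.47e-14) without replicate 2 and -6.47 (adjusted p = 0.00438) with it. The 0 in replicate 2 allows up to 0.101 CPM, counting error only, and this library also listed other genes of moderate level at 0. The paralog kdm4aa was at 13.95, 0 and 15.8 CPM in kdm4ab knockout libraries, against 18.1, 20.6 and 18.5 CPM in wild type. Its log2 change was -0.35 (edgeR adjusted p = 0.0393) without replicate 2 and -0.94 (adjusted p = 0.624) with it, so it was not called in both although the groups did not overlap. In the kdm4aa knockout libraries, kdm4aa itself was at 17.9, 14.7 and 17.2 CPM, so the count of this gene does not set those libraries apart from wild type. KDM4B, chosen after its values were seen, was at 186, 129 and 205 CPM in kdm4ab knockout libraries, against 223, 185 and 194 CPM in wild type. The last family member, kdm4c, was at 84.2, 14.3 and 87.4 CPM, against 76.9, 80.5 and 78.7 CPM in wild type. Neither KDM4B nor kdm4c was called in either fit, with log2 changes of -0.03 and 0.13 without replicate 2.

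**Figure D2:**
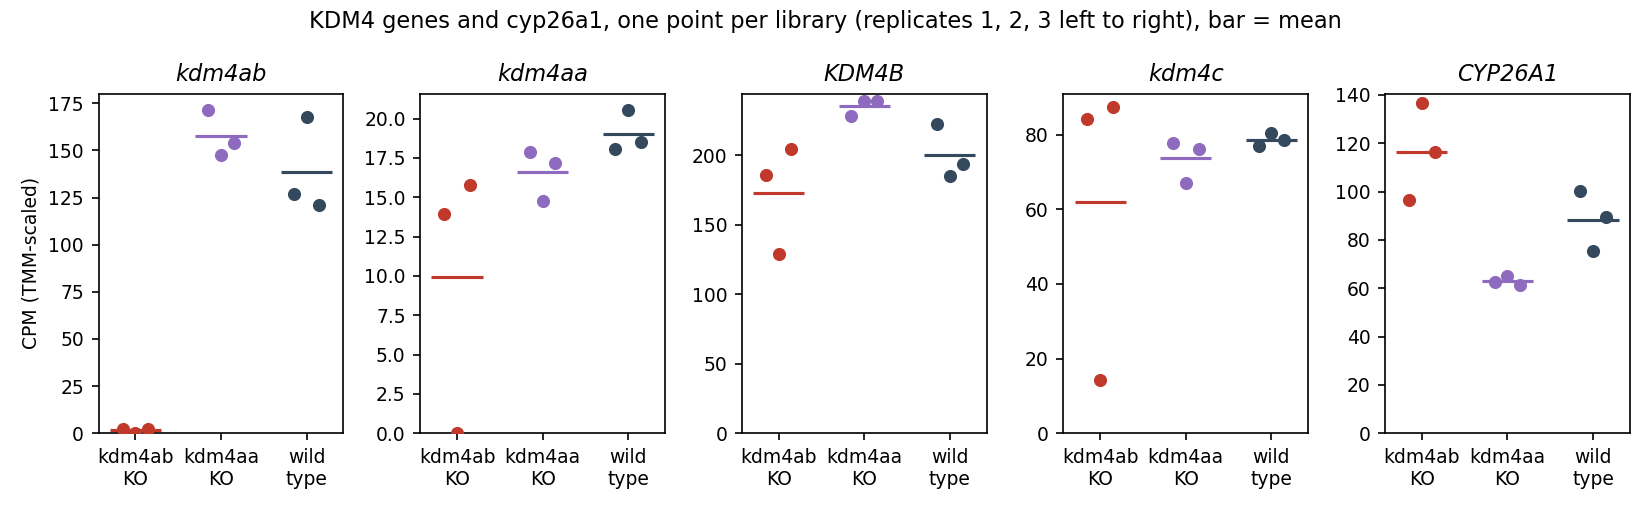
CPM of the 4 KDM4 genes and of CYP26A1 (the symbol the table of names gives for cyp26a1) in each library, with the mean as a bar, on linear axes from 0. kdm4ab lies at 0 to 2.38 CPM in the kdm4ab knockout, far below wild type at 121 to 168 CPM, and kdm4aa lies below wild type, with replicate 2 at 0.

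cyp26a1, which encodes an enzyme that clears retinoic acid, was at 96.5, 137 and 116 CPM in kdm4ab knockout libraries, against 100, 75.5 and 89.5 CPM in wild type. The lowest knockout value lay inside the wild-type range, and the gene was not called (log2 0.27, edgeR adjusted p = 0.0545 without replicate 2; 0.40, adjusted p = 0.137 with it). The kdm4aa knockout libraries held 62.5, 65.0 and 61.2 CPM. Against these the kdm4ab knockout was higher by 0.76 on the log2 scale and was called in both fits (edgeR adjusted p = 2.48e-05 without replicate 2 and 0.00893 with it).

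Over the transcriptome, 3230 of 18998 genes tested in both fits were called in both, which is 17% of them. Of these, 1703 were higher (8.96%) and 1527 lower (8.04%) in the kdm4ab knockout. The fit without replicate 2 called 9848 of 19882 genes (49.5%; 25.3% higher and 24.2% lower), and the fit with all libraries called 3232 (17%; 8.97% higher and 8.04% lower). The values of all 3 kdm4ab knockout libraries lay outside the wild-type range for 3218 of the genes called in both, and among all tested genes 43.8% showed no overlap (17.9% higher and 25.9% lower). Separation thus nearly follows from a call in both fits, and it is no added result for the list members named below. Replicate 2 listed 531 of the 1527 lower genes at 0, and 1 of the 1703 higher genes. A change of at least 1 on the log2 scale was found for 2184 genes called in both (11.5% of those tested; 5.84% higher and 5.66% lower). Only 2 genes were called in the fit with all libraries and not in both, dre-mir-430b-17 (log2 4.79) and MIP (ENSDARG00000013963, 4.25), and both reached their highest value in replicate 2 (they were chosen after their values were seen). Leaving out a wild-type library left 1228, 1633 and 1219 genes called in both without replicates 1, 2 and 3, and fitting these 6 libraries without the kdm4aa knockout gave 1092.

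Replicate 2 also served as a library that the other fit did not use. It lay above all 3 wild-type libraries for 55.9% of 4890 genes called higher without it, against 33.0% of 9385 genes that were not called. For 1761 of the 4890 genes called higher, it lay below all 3 wild-type libraries. For 4723 genes called lower without it, replicate 2 lay below all wild-type libraries in 78.4% and above all in 17.4%. It lay below all for 59.7% of genes not called. It listed 14.7% of the higher genes, 29.2% of the lower genes and 31.9% of the genes not called at 0. The calls used the same wild-type libraries, so this was no independent test.

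**Figure D3:**
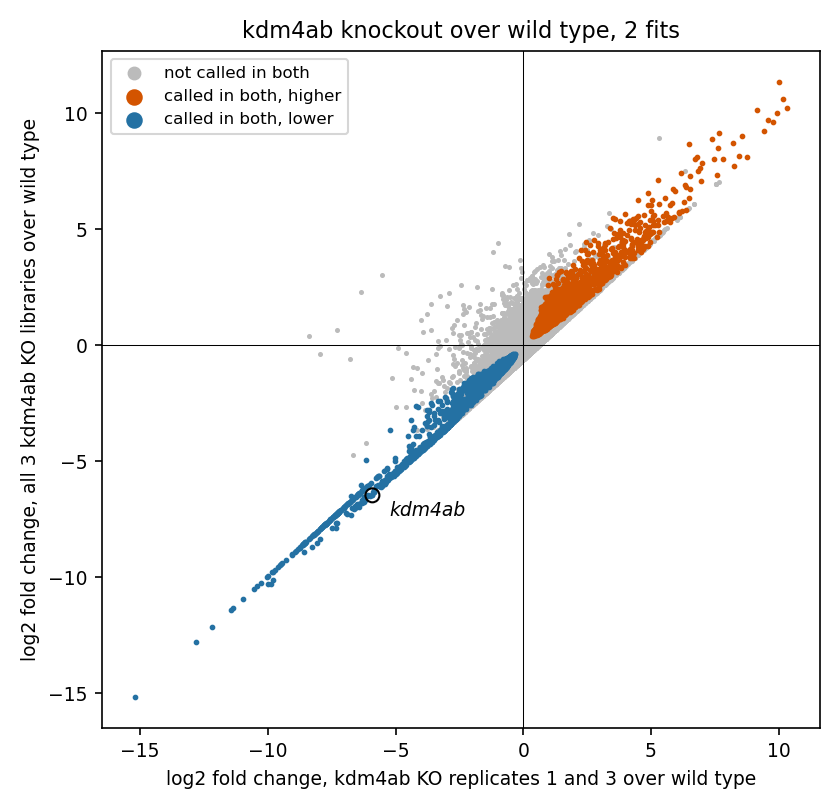
Log2 fold change of each gene tested in both fits, kdm4ab knockout over wild type, without replicate 2 (horizontal) and with all 3 knockout libraries (vertical). Coloured points are the 1703 higher and 1527 lower genes called in both, and the circle marks kdm4ab at -5.91 and -6.47.

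The genes that were lowest relative to wild type were close to absent from the knockout. ccdc15, which encodes a coiled-coil domain protein, had no count in any kdm4ab knockout library, against 21.4, 23.4 and 21.98 CPM in wild type. Set against 3 counts per library, its level was at least 285-fold lower in the kdm4ab knockout. evpla, related to envoplakin of the cornified envelope in mammals, also had no count, against 9.70, 7.81 and 8.55 CPM in wild type, which is at least 111-fold lower. No count was found for GAD1 (ENSDARG00000093411, a symbol carried by 2 identifiers so that the paralog is uncertain), which encodes a GABA-synthesizing enzyme, against 4.89, 7.61 and 6.34 CPM in wild type, at least 80.4-fold lower. These bounds and the intervals that follow cover counting error only, because the reads carry no molecular identifiers and cannot be counted as separate molecules.

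CXCR3, a chemokine receptor, had 2 counts in the kdm4ab knockout libraries together, and its rate in wild type was 1336 times that in the knockout (exact 95% interval 369 to 11037). trpc2a, a cation channel gene, had 3 counts in the knockout, with a wild-type rate 355 times as high (121 to 1725). c7b, which encodes a complement component, was at 0.0806, 0 and 0.0974 CPM in kdm4ab knockout libraries, against 88.9, 82.5 and 85.4 CPM in wild type, and fell by 9.87 on the log2 scale (SE 0.197; edgeR adjusted p = 1.16e-15). PAPPA (ENSDARG00000059858, 2 identifiers), a protease of insulin-like growth factor binding proteins, was at 0, 0 and 0.122 CPM, against 16.7, 20.7 and 17.6 CPM in wild type. NCK1 (ENSDARG00000074262, 2 identifiers), an adaptor of receptor tyrosine kinases, was at 0.403, 0 and 0.0487 CPM, against 38.4, 39.9 and 41.2 CPM in wild type. ifnlr1, an interferon receptor subunit, was at 0.625, 0 and 0.365 CPM, against 43.3, 43.0 and 44.6 CPM in wild type. dicp1.3-4, an immune receptor gene of fish, was at 0.0403, 0 and 0.0974 CPM, against 5.48, 7.37 and 6.67 CPM in wild type. The rule that chose these genes asked for a call in both fits and no overlap between the groups, so neither is an added result.

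Several of the same genes were also near 0 in the kdm4aa knockout libraries, which were given beside wild type and not used to choose them. trpc2a and dicp1.3-4 had 0 CPM in all 3 kdm4aa knockout libraries, ccdc15 had 0 to 0.029 CPM, CXCR3 had 0.029 to 0.266 CPM and NCK1 had 0.362 to 0.899 CPM. These 5 genes were not called in both fits between the knockouts. Without replicate 2 alone, dicp1.3-4 (log2 4.49, edgeR adjusted p = 0.0131) and NCK1 (-1.21, adjusted p = 0.0483) were called. With all libraries they were not (adjusted p = 0.0961 and 0.191). GAD1 had 0.0300 to 0.0579 CPM in the kdm4aa knockout and was called between the knockouts (edgeR adjusted p = 0.0356 without replicate 2 and 0.0399 with it). These values lie below the 0.0604, 0.101 and 0.0730 CPM that a 0 allows in kdm4ab knockout replicates 1, 2 and 3. The call therefore sits at the detection limit and does not set GAD1 apart from the other genes near 0. c7b was at 54.2 to 58.4 CPM in the kdm4aa knockout, and there the kdm4ab knockout was lower by -9.26 on the log2 scale (edgeR adjusted p = 1.92e-15 without replicate 2 and 6.12e-05 with it). RRM2 (ENSDARG00000020711, 2 identifiers), a subunit of ribonucleotide reductase, was at 5.24, 8.54 and 5.89 CPM in kdm4ab knockout libraries, against 608, 574 and 600 CPM in wild type and 268, 211 and 276 CPM in the kdm4aa knockout. It fell by 6.74 (SE 0.147; edgeR adjusted p = 2.61e-15) against wild type and by 5.50 against the kdm4aa knockout, and was called in both fits of each comparison. The other identifier with the symbol RRM2 (ENSDARG00000078069, outside the naming rule) was at 896, 2166 and 912 CPM in kdm4ab knockout libraries, against 515, 484 and 506 CPM in wild type, and rose by 0.85. How reads were divided between the 2 identifiers was not stated.

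Among the genes that were highest relative to wild type, most were barely detected in wild type. map4k2, a kinase gene, was at 6.51, 2.86 and 6.74 CPM in kdm4ab knockout libraries, against 0, 0 and 0.0443 CPM in wild type, a ratio of the rates of 350 (exact 95% interval 96.5 to 2895). kcnn1b, a calcium-activated potassium channel gene, was at 8.06, 21.7 and 6.40 CPM, against 0.0509 to 0.0665 CPM in wild type. NEUROD6 (ENSDARG00000020794, 2 identifiers), a neuronal transcription factor, was at 15.3, 37.1 and 11.6 CPM, against 0.153, 0 and 0.177 CPM in wild type, a rise of 6.86 (SE 0.358; edgeR adjusted p = 1.06e-10). In the kdm4aa knockout NEUROD6 was at 13.6, 10.7 and 10.3 CPM and it was not called between the knockouts.

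TRPM6, a magnesium-permeable channel gene, was at 64.4, 14.9 and 68.2 CPM in kdm4ab knockout libraries, against 0.917, 0.673 and 1.06 CPM in wild type, and rose by 6.21 (SE 0.156; edgeR adjusted p = 1.43e-14). HDAC11, a histone deacetylase gene, was at 32.7, 16.1 and 32.8 CPM, against 0.968, 0.673 and 0.155 CPM in wild type. taco1, needed in mammals for translation of a mitochondrial oxidase subunit, was at 20.1, 40.7 and 18.1 CPM, against 0.407, 0.207 and 0.0886 CPM in wild type. DNAI2, a dynein chain of motile cilia, was at 15.12, 12.3 and 16.1 CPM, against 0.357, 0.103 and 0.133 CPM in wild type. CHST15, a sulfotransferase gene, was at 20.3, 13.98 and 17.3 CPM, against 0.331, 0.259 and 0.0443 CPM in wild type. In the kdm4aa knockout TRPM6 was at 38.2 to 45.01 CPM and HDAC11 at 11.4 to 13.2 CPM. There taco1 was at 4.85 to 7.18, DNAI2 at 4.58 to 5.68 and CHST15 at 1.01 to 1.53 CPM. All of these genes thus lay above wild type there too. TRPM6 and HDAC11 were called between the knockouts without replicate 2 and not with it (edgeR adjusted p = 0.785 and 0.158). taco1, DNAI2 and CHST15 were called higher in the kdm4ab knockout in both fits. GGACT (ENSDARG00000070581, 3 identifiers), MYOM1 (ENSDARG00000104836, 2 identifiers), ANKRD33B (ENSDARG00000015589, 2 identifiers) and ttbk2a were the others of the 12 highest, with rises of 7.60, 6.35, 6.09 and 5.89. The 12 were chosen among genes whose kdm4ab knockout and wild-type values do not overlap, so that separation is no added result. MYOM1 alone of them lost its call when a library was left out, without wild-type replicate 1 (edgeR adjusted p = 0.0578) or 3.

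Mesendoderm genes were low in the kdm4ab knockout. Of 46 tested members of a list of mesendoderm and organizer genes, 18 fell and 2 rose, against 8.04% of all tested genes lower and 8.96% higher. The median log2 change of the list was -1.60, against 0.0077 over all genes (-1.92 and -0.03 with replicate 2). tbx16, a T-box factor of paraxial mesoderm, was at 58.5, 28.9 and 56.4 CPM in kdm4ab knockout libraries, against 429, 309 and 391 CPM in wild type. It fell by 2.71 (SE 0.125; edgeR adjusted p = 2.81e-11 without replicate 2 and 0.00052 with it), and no knockout value came near wild type. aplnra, the receptor of the early embryonic peptide Apela, was at 3.29, 0 and 2.70 CPM, against 47.5, 43.2 and 49.7 CPM in wild type. foxa3, a forkhead factor of endoderm and axial tissue, was at 2.84, 0 and 3.41 CPM, against 40.9, 31.4 and 38.3 CPM in wild type. CXCR4 (ENSDARG00000057633, 2 identifiers), a chemokine receptor that guides migrating cells, was at 31.3, 48.5 and 34.7 CPM, against 157, 131 and 159 CPM in wild type, and fell by 2.17 (SE 0.107; edgeR adjusted p = 5.59e-11).

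Other members that fell were tbxta and noto of the notochord, the endoderm factors sox32, mixl1, GATA5 and GATA6, the Nodal antagonist lft1, and snai1a and snai1b of migrating cells. The 18 ranged from -5.50 to -0.63 on the log2 scale, with FGF8 (ENSDARG00000003399) the lowest, and replicate 2 listed 9 of them at 0. The members that rose were aplnrb, at 278, 287 and 407 CPM in kdm4ab knockout libraries against 114, 74.8 and 83.5 CPM in wild type, and LMX1B (ENSDARG00000068365), at 9.70, 8.84 and 10.03 CPM against 0.509, 0.285 and 0.310 CPM. The whole list summed to 912, 977 and 1052 CPM in kdm4ab knockout libraries, against 1981, 1571 and 1913 CPM in wild type. In whole embryos, fewer cells of a type and less RNA per cell cannot be told apart. Without single wild-type libraries, 12 to 14 members stayed lower. aplnra lost its call without any of the 3 (edgeR adjusted p up to 0.0676), foxa3 without any of them or kdm4ab knockout replicate 1 (up to 0.092), and tbxta without any of the 3 wild-type libraries (up to 0.0726).

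Regulators of the blastula were lower in the same direction. Of 38 tested pluripotency and blastula genes, 21 fell and 1 rose (57.9% called, against 17% of all tested genes), with a list median of -0.77. ZIC2 (ENSDARG00000037178, 2 identifiers), a zinc finger factor, was at 51.1, 67.7 and 42.9 CPM in kdm4ab knockout libraries, against 303, 258 and 294 CPM in wild type. It fell by 2.596 (SE 0.109; edgeR adjusted p = 8.09e-12 without replicate 2 and 0.000238 with it). mych, a Myc family gene, was at 113, 95.7 and 119 CPM, against 444, 342 and 402 CPM in wild type. mxtx1, a homeobox gene of the yolk syncytial layer, was at 5.0, 9.45 and 4.41 CPM, against 30.0, 23.9 and 32.1 CPM in wild type. The knockout and wild-type ranges were apart for all 3.

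Among other lower members were klf2a, sox19a, MYCN, SALL4, apela, foxh1 and nanog, a factor that opens the zygotic genome. nanog, chosen after its values were seen, was at 1678, 1271 and 1756 CPM in kdm4ab knockout libraries, against 2559, 2254 and 2407 CPM in wild type, and its fall was small (log2 -0.48, edgeR adjusted p = 6.58e-05). The 1 member that rose was irx7, by 1.42. Summed, the list stood at 7027, 5059 and 7560 CPM in kdm4ab knockout libraries, against 11722, 10257 and 11235 CPM in wild type. Without single wild-type libraries 14 to 16 members stayed lower.

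Signals that pattern the axes were mixed. In the list of BMP pathway and dorsoventral patterning genes, 9 of 43 fell and 4 rose (30.2% called, against 17% of all tested genes). The ligand bmp7a was at 14.5, 14.5 and 13.2 CPM in kdm4ab knockout libraries, against 100, 74.3 and 95.8 CPM in wild type, and fell by 2.69 (SE 0.141; edgeR adjusted p = 1.1e-10 without replicate 2 and 0.000126 with it). The feedback inhibitor szl, a sizzled protein secreted ventrally, was at 0.121, 0 and 0 CPM, against 6.52, 4.79 and 4.34 CPM in wild type. GATA3, a factor of ventral ectoderm, was at 42.5, 33.95 and 42.3 CPM, against 113, 86.8 and 120 CPM in wild type. foxi1, a forkhead factor of nonneural ectoderm, went the other way, at 77.8, 66.0 and 86.1 CPM in kdm4ab knockout libraries against 27.8, 19.6 and 26.7 CPM in wild type, and rose by 1.73 (SE 0.128; edgeR adjusted p = 7.28e-09). The groups were apart for these 4 genes, which their choice among genes called in both fits made likely. The receptors bmpr1ba and BMPR1A (ENSDARG00000105045) and the target msx1b also rose, and admp, the receptor acvr1l, the inhibitor SMAD7, ved, TFAP2A and TP63 fell. The list summed to 1557, 1612 and 1637 CPM in kdm4ab knockout libraries, against 2380, 2102 and 2339 CPM in wild type. Without wild-type replicates 1 or 3, 5 members stayed lower, and without replicate 2 it was 7.

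Of 53 tested Wnt, Fgf and Notch targets, 11 fell and 3 rose (26.4% called, against 17% of all tested genes). fgfr4, a receptor of Fgf ligands, was at 38.5, 4.84 and 38.5 CPM in kdm4ab knockout libraries, against 177, 135 and 167 CPM in wild type. SPRY4, a feedback inhibitor of Fgf signalling, was at 3.31, 1.01 and 3.02 CPM, against 14.1, 10.7 and 14.2 CPM in wild type. tcf7l1b, a repressor of Wnt targets, was at 16.8, 19.3 and 17.4 CPM, against 40.5, 46.5 and 46.4 CPM in wild type, and fell by 1.38 (SE 0.127; edgeR adjusted p = 1.16e-07). NRARP (ENSDARG00000091419, 2 identifiers), a Notch target, was at 24.0, 10.7 and 21.4 CPM, against 54.7, 49.9 and 60.9 CPM in wild type. The groups were apart for all 4, and the Fgf targets ETV4, SPRY2 and etv5b and the Wnt target SP5 also fell. etv5a, her12 and DKK3 (ENSDARG00000103591) rose. The count depended on single libraries, with 4, 8 and 5 members lower without wild-type replicates 1, 2 and 3, and fgfr4 lost its call without any of these (edgeR adjusted p up to 0.0875).

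Keratin and adhesion genes of the covering epithelium were among the lower genes. Of 39 tested genes of epidermis, enveloping layer and ionocytes, 20 fell and 2 rose, with a list median of -1.84. That is 56.4% called, against 17% of all tested genes. krt4, a keratin gene of the enveloping layer, was at 11.3, 9.61 and 5.65 CPM in kdm4ab knockout libraries, against 198, 154 and 196 CPM in wild type. It fell by 4.41 (SE 0.216; edgeR adjusted p = 5.1e-11 without replicate 2 and 0.000127 with it). krt18a.1 was at 27.3, 22.6 and 19.1 CPM, against 249, 192 and 249 CPM in wild type. ATP1B1 (ENSDARG00000013144, 2 identifiers), a subunit of the sodium pump, was at 4.64, 3.06 and 2.24 CPM, against 77.0, 66.1 and 76.9 CPM in wild type. lye, a surface antigen gene of fish epithelium, was at 6.79, 3.80 and 3.46 CPM, against 67.8, 60.02 and 72.9 CPM in wild type. Replicate 2 had counts for each of these 4 genes. That their knockout values lay below wild type nearly follows from their choice among genes called in both fits.

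Further members that fell were the keratins krt5, krt8, krt92, krt97 and krt99, the claudins cldne, cldnb, cldnf and cldn7b, evpla, and the epithelial regulators grhl3, GRHL1, ovol1a and TP63. Replicate 2 listed 5 of the 20 lower members at 0. epcam (log2 0.65) and foxi1 rose. The list summed to 2849, 3655 and 2925 CPM in kdm4ab knockout libraries, against 4334, 3630 and 4190 CPM in wild type, so replicate 2 overlapped wild type in the sum. Between the knockouts, krt4 was lower in the kdm4ab knockout by -3.35 on the log2 scale against 79.9, 94.7 and 87.2 CPM in the kdm4aa knockout (edgeR adjusted p = 7.87e-10 without replicate 2 and 0.000235 with it). Without single wild-type libraries 14 to 18 members of the list stayed lower.

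Yolk syncytial layer, liver and lipoprotein genes were lower or not called. Of 25 tested, 8 fell and none rose in both fits (32% called, against 17% of all tested genes), while 2 were called higher without replicate 2, 2 by limma voom in both fits, 0 by DESeq2 in both and 0 by edgeR at an unadjusted p under 0.05 in both. HNF4A, a nuclear receptor of liver, gut and yolk, was at 0.867, 0 and 0.487 CPM in kdm4ab knockout libraries, against 12.7, 9.47 and 11.9 CPM in wild type. It fell by 4.04 (SE 0.273; edgeR adjusted p = 2.41e-09). ctsll, a cathepsin gene, was at 1.96, 2.62 and 1.14 CPM, against 13.1, 9.11 and 10.2 CPM in wild type. SLC26A1, an anion transporter gene, had 2 counts in all kdm4ab knockout libraries, and its wild-type rate was 150 times as high (exact 95% interval 41.2 to 1246). MTTP and APOB, which assemble and carry lipoprotein particles, and apom, P4HB and mxtx1 also fell. The groups did not overlap for any of the 8, and replicate 2 listed 5 of them at 0. The summed list was at 1024, 1043 and 1058 CPM in kdm4ab knockout libraries, against 1848, 1601 and 1777 CPM in wild type.

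**Figure D4:**
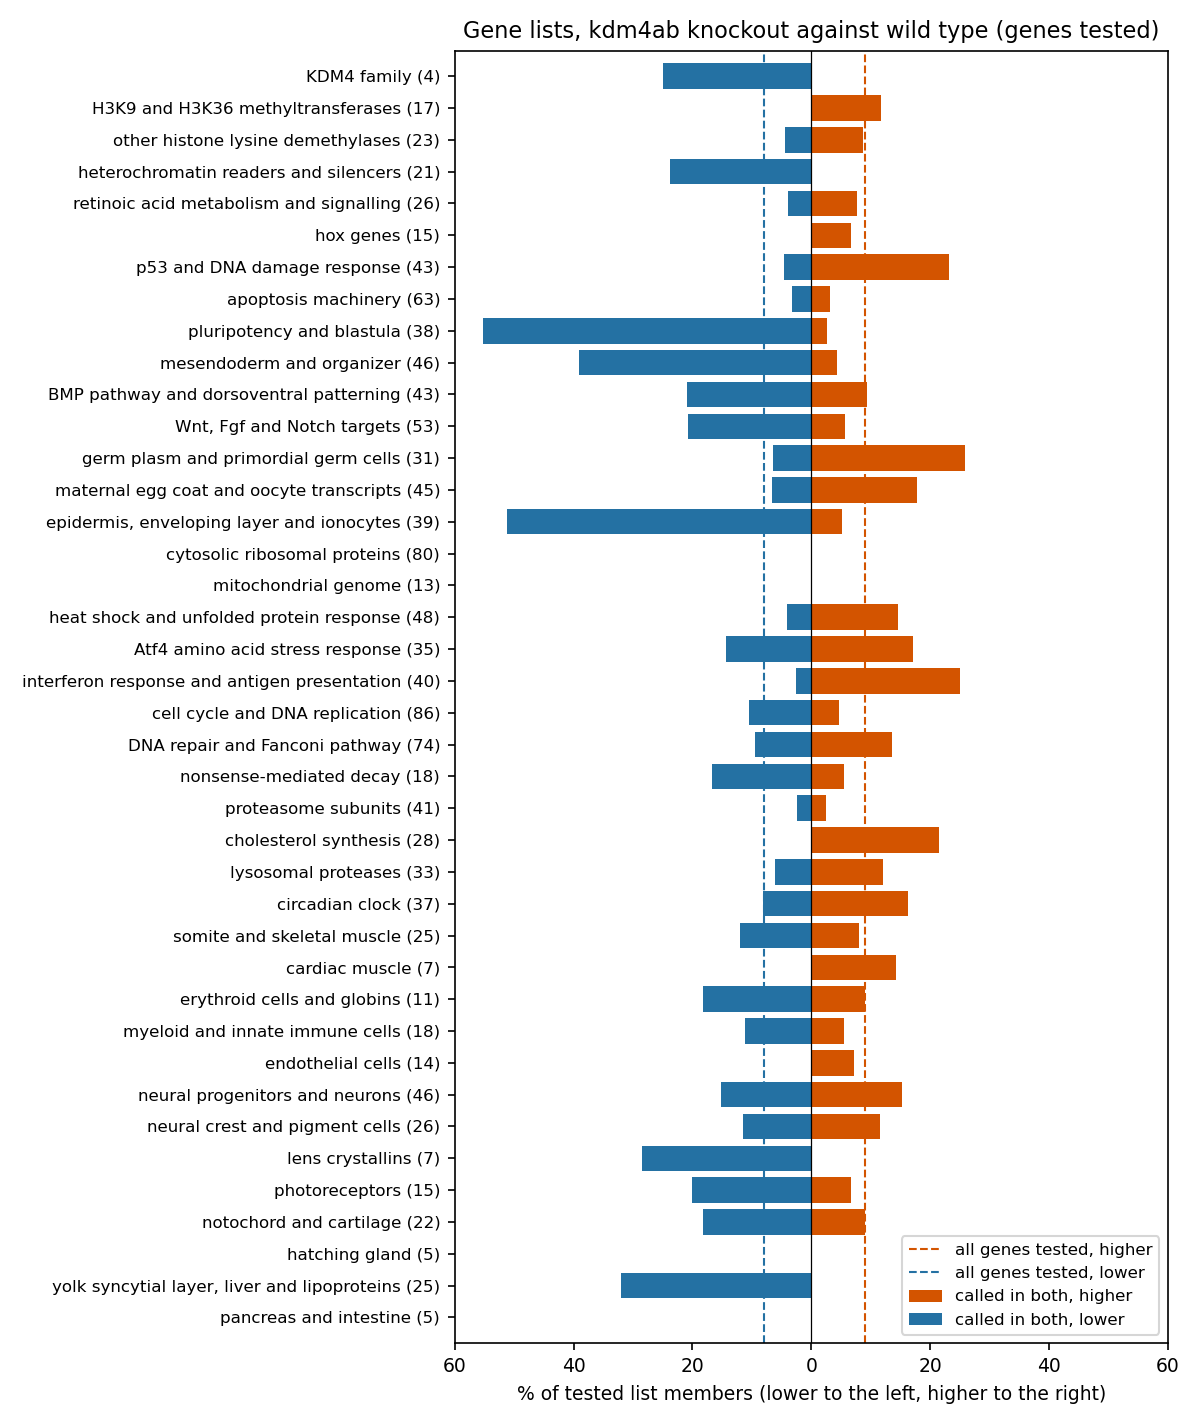
Percent of the tested members of each gene list that were called in both fits, lower to the left and higher to the right, with the number tested in brackets and dashed lines at the shares over all tested genes (8.04% lower and 8.96% higher). Blastula (21 of 38 lower), epidermal (20 of 39 lower) and mesendoderm (18 of 46 lower) lists reach farthest left.

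Of 43 tested genes of p53 and the DNA damage response, 10 rose, 2 fell and 31 were not called in both fits, with a list median of 0.30. That is 23.3% higher and 4.65% lower, against 8.96% higher and 8.04% lower of all tested genes. Without replicate 2, 18 were called higher and 10 lower, where 25.3% of all genes tested were called higher and 24.2% lower. With only the libraries of the groups compared, 3 were higher and 1 lower in both. cdkn1a, which encodes the p21 inhibitor of cell cycle kinases, was at 57.5, 18.2 and 69.9 CPM in kdm4ab knockout libraries, against 5.86, 5.28 and 6.45 CPM in wild type. It rose by 3.44 (SE 0.165; edgeR adjusted p = 4.05e-11 without replicate 2 and 0.00378 with it). GADD45A (ENSDARG00000043581, 2 identifiers), a growth arrest gene, was at 45.5, 62.1 and 50.7 CPM, against 4.79, 4.17 and 3.26 CPM in wild type. mdm2, the ubiquitin ligase that restrains p53, was at 165, 112 and 176 CPM, against 84.5, 77.2 and 66.5 CPM in wild type. The 3 genes were above wild type in all 3 knockout libraries.

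bbc3 and pmaip1, which encode the death activators Puma and Noxa, rose by 1.79 and 1.21, and GADD45G (ENSDARG00000019417), rps27l, PHLDA3, sesn3 and ATF3 rose too. GADD45B (ENSDARG00000027744, 2 identifiers) fell, at 7.80, 10.9 and 7.11 CPM in kdm4ab knockout libraries against 25.3, 19.4 and 29.1 CPM in wild type, and so did the receptor tnfrsf1a. The sum of the list did not follow its calls, at 3508, 4439 and 3455 CPM in kdm4ab knockout libraries and 3581, 3635 and 3631 CPM in wild type. The count of higher members was 7, 4 and 3 without wild-type replicates 1, 2 and 3, and mdm2 lost its call without replicate 3 (edgeR adjusted p = 0.0652). Among 63 tested apoptosis genes, 2 were higher and 2 lower in both fits, which is 6.35% called against 17% of all tested genes. Those were PDCD4 (log2 0.63) and BIRC5 (0.75), and bcl2l13 (-1.35) and AIFM1 (-0.47). PDCD4 lost its call without wild-type replicates 1 or 3 (edgeR adjusted p up to 0.0522), and BIRC5 and AIFM1 without any wild-type library (up to 0.154 and 0.086).

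Genes of the interferon response and antigen presentation rose more often than they fell. Of 40 tested, 10 rose and 1 fell (27.5% called, against 17% of all tested genes), with a list median of 0.70. gbp3, a guanylate binding protein gene, was at 148, 122 and 162 CPM in kdm4ab knockout libraries, against 34.5, 33.5 and 30.8 CPM in wild type. It rose by 2.24 (SE 0.0926; edgeR adjusted p = 6.8e-12 without replicate 2 and 0.000165 with it). trim25, a ubiquitin ligase of viral RNA sensing, was at 42.5, 48.9 and 43.3 CPM, against 8.35, 6.42 and 7.34 CPM in wild type. PSME1, a proteasome activator subunit, was at 15.7, 20.8 and 18.4 CPM, against 0.815, 0.207 and 0.488 CPM in wild type. MYD88, an adaptor of Toll-like receptors, was at 27.8, 23.4 and 25.1 CPM, against 9.17, 11.2 and 9.33 CPM in wild type. The 4 were chosen among genes called in both fits, so agreement of the 3 knockout libraries and separation from wild type are no added result.

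isg15, b2ml, gbp1, gbp2, irf3 and PSMB10 also rose, and irf1a fell by 2.17. gbp3, trim25 and MYD88 were at 126 to 141, 45.5 to 48.7 and 32.0 to 35.1 CPM in the kdm4aa knockout and were not called between the knockouts. PSME1 was at 0.637 to 1.35 CPM there and was called. Of the 40 tested members, 10 were called higher and 1 lower in the kdm4ab than in the kdm4aa knockout, in both fits. Over all tested genes, 9.37% were higher and 8.81% lower in that comparison. The list summed to 1044, 1012 and 1075 CPM in kdm4ab knockout libraries, against 797, 713 and 745 CPM in wild type. Myeloid and innate immune cell markers summed to 169, 278 and 158 CPM in kdm4ab knockout libraries, against 376, 296 and 357 CPM in wild type. Of these markers, 2 of 18 tested fell and 1 rose (16.7% called, against 17% of all tested genes), and their part in the result was not tested. LCP1 and CEBPB were the lower pair and NCF1 the higher one. LCP1 and CEBPB lost their calls without wild-type replicates 1 or 3 (edgeR adjusted p up to 0.0664 and 0.0632), and NCF1 without any single library other than kdm4ab knockout replicate 2 (up to 0.151).

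**Figure D5:**
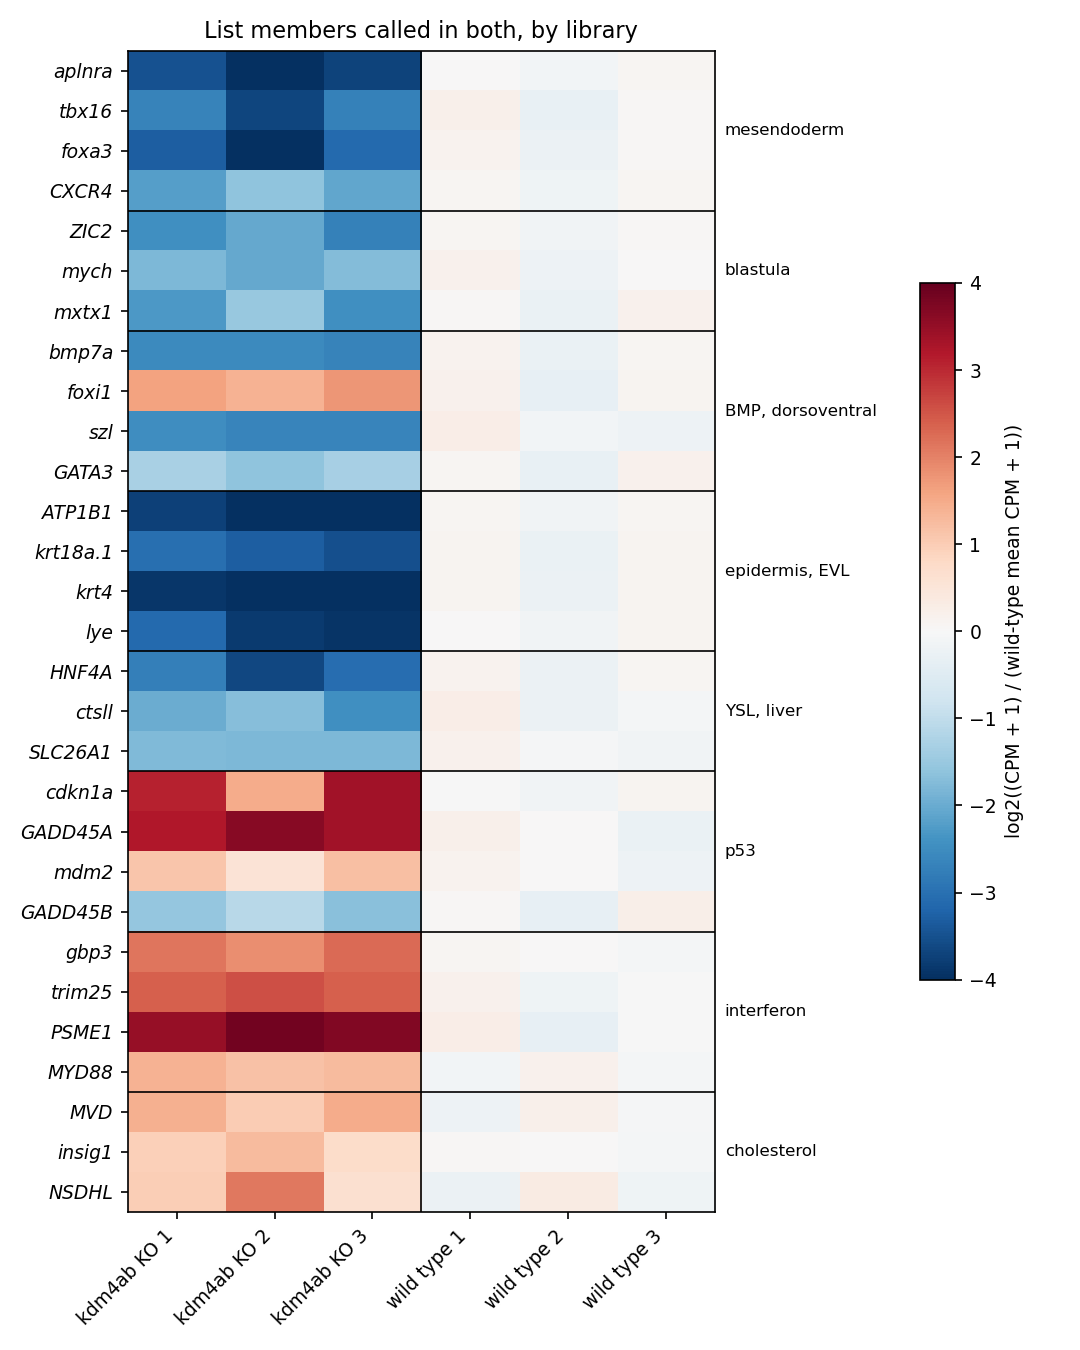
Log2 ratio of each library to the wild-type mean, on CPM + 1, for named members of 8 lists that were called in both fits. The 3 kdm4ab knockout libraries are on the left and the 3 wild-type libraries on the right; mesendoderm, blastula, epidermal and yolk syncytial genes are below the wild-type mean in all 3 knockout libraries, and interferon and cholesterol genes above it.

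Of 86 tested cell cycle and replication genes, 9 fell and 4 rose. That is 10.5% lower and 4.65% higher, against 8.04% lower and 8.96% higher of all tested genes. Besides RRM2, CCND1, the cyclin of entry into S phase, was at 114, 59.5 and 78.4 CPM in kdm4ab knockout libraries, against 753, 600 and 755 CPM in wild type, and fell by 2.87 (SE 0.145; edgeR adjusted p = 6.91e-11 without replicate 2 and 0.000267 with it). TOP2A, the topoisomerase of dividing cells, was at 33.0, 33.8 and 30.7 CPM, against 105, 82.9 and 90.7 CPM in wild type. ccnb3, a mitotic cyclin gene, was at 13.3, 15.2 and 11.3 CPM, against 36.2, 29.5 and 33.5 CPM in wild type. All 3 were below wild type in each knockout library, and the lower count was 8 or 9 when any other single library was left out. The higher count moved to 1, 0 and 1 without wild-type replicates 1, 2 and 3, and to 8 without kdm4ab knockout replicate 3.

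Of 74 tested DNA repair and Fanconi pathway genes, 10 rose and 7 fell, which is 13.5% and 9.46%, near the 8.96% higher and 8.04% lower of all tested genes. XRCC3, of recombination repair, was at 6.05, 14.7 and 4.97 CPM in kdm4ab knockout libraries, against 30.2, 33.6 and 30.4 CPM in wild type, and fell by 2.503. TDG (ENSDARG00000013004, 2 identifiers), a DNA glycosylase, was at 3.69, 3.87 and 3.29 CPM, against 22.2, 20.6 and 21.2 CPM in wild type, and fell by 2.61 (SE 0.185; edgeR adjusted p = 4.53e-09). APEX1, an endonuclease of base excision repair, fell by 1.01, and rad18, a ligase of damage tolerance, rose by 0.70, with 104, 121 and 96.6 CPM against 61.8, 61.9 and 62.2 CPM in wild type. The groups were apart for the 4. The count of higher members was 3, 3 and 2, and that of lower members 3, 4 and 3, without wild-type replicates 1, 2 and 3.

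Members of the stress lists went in both directions. Of 48 tested heat shock and unfolded protein response genes, 7 rose and 2 fell, or 18.8% called, about the 17% of all tested genes. HSPA8 (ENSDARG00000037403, 2 identifiers), a chaperone gene, was at 7.88, 4.91 and 10.1 CPM in kdm4ab knockout libraries, against 0.102, 0.129 and 0.310 CPM in wild type. The disulfide isomerase genes PDIA6 and PDIA4 rose by 0.95 and 0.85, and the small heat shock gene HSPB1 fell, at 71.7, 55.3 and 66.6 CPM against 193, 146 and 165 CPM in wild type. The 3 chaperone genes were above wild type and HSPB1 below it in every knockout library. In the Atf4 amino acid stress response, 6 of 35 rose and 5 fell (31.4% called). nupr1a, a stress-induced regulator, was at 47.3, 175 and 46.7 CPM in kdm4ab knockout libraries, against 10.8, 11.7 and 12.4 CPM in wild type, and DDIT4, an inhibitor of mTOR signalling, was at 298, 616 and 334 CPM, against 107, 146 and 118 CPM. CEBPB (-2.77) and the amino acid transporter subunit SLC3A2 (-1.86) fell. Higher members numbered 3, 5 and 3 of the heat shock list and 3, 3 and 2 of the Atf4 list without wild-type replicates 1, 2 and 3, and heat shock members numbered 4 without kdm4ab knockout replicate 1. Lower members of the Atf4 list numbered 2 without wild-type replicate 1 or 3, where CEBPB lost its call (edgeR adjusted p up to 0.0632), and lower heat shock members numbered 1 without any wild-type library or kdm4ab knockout replicate 1.

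Of 18 tested genes of nonsense-mediated decay, 3 fell and 1 rose (22.2% called, against 17% of all tested genes). PNRC2, CASC3 and UPF3B were lower by -0.54, -0.42 and -0.50, and the decapping enzyme DCP2 rose by 0.79. The 3 lower genes lost their calls without wild-type replicate 1 or 3 (edgeR adjusted p up to 0.0844, 0.139 and 0.142), and CASC3 and UPF3B also without wild-type replicate 2. CASC3 lost it without kdm4ab knockout replicate 1 as well, and UPF3B without replicate 3. Of 41 tested proteasome subunits, PSMA4 rose and PSMD11 (ENSDARG00000060150, 2 identifiers) fell (4.88% called, against 17% of all tested genes). Both lost their calls without any single wild-type library, PSMD11 also without kdm4ab knockout replicate 1 or 3 (edgeR adjusted p up to 0.135 and 0.151). None of 80 cytosolic ribosomal protein genes was called in both fits. Without replicate 2, edgeR called 48 of the 80 lower and 1 higher, against 24.2% lower and 25.3% higher of all genes tested in that fit. limma voom called 39 lower and 1 higher in both, DESeq2 called 1 lower, and 1 was lower by edgeR at an unadjusted p under 0.05 in both. The median log2 change of the 80 genes was -0.37 without replicate 2 and 0.93 with it, so the sign rests on that library. RPS16 was at 46.1, 178 and 43.2 CPM in kdm4ab knockout libraries, against 69.5, 82.1 and 75.8 CPM in wild type. RPL12 was at 203, 740 and 173 CPM, against 294, 303 and 297 CPM in wild type. None of 13 transcripts of the mitochondrial genome was called in both, with 2 higher and 1 lower by edgeR without replicate 2, 1 lower by DESeq2 in both, and 1 in each direction by edgeR at an unadjusted p under 0.05 in both.

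Cholesterol synthesis genes were higher or not called. Of 28 tested, 6 rose and none fell in both fits (21.4% called, against 17% of all tested genes). As lower, 1 was called by edgeR without replicate 2, 1 by limma voom in both, and 0 by DESeq2 or at an unadjusted p under 0.05 in both. MVD, a decarboxylase of the mevalonate pathway, was at 12.2, 8.98 and 12.9 CPM in kdm4ab knockout libraries, against 3.31, 4.68 and 3.77 CPM in wild type, and rose by 1.68. insig1, a sterol sensor, was at 44.9, 56.1 and 38.8 CPM, against 23.9, 23.1 and 21.8 CPM, and NSDHL and MVK rose by 0.86 and 0.56. No knockout library overlapped wild type in these genes. The count of higher members was 3 without each of the wild-type libraries, and NSDHL lost its call then (edgeR adjusted p up to 0.13). Lysosomal proteases and partners had 4 of 33 higher and 2 lower, or 18.2% called, near the 17% of all tested genes. LGMN, a legumain gene, was at 325, 486 and 323 CPM in kdm4ab knockout libraries, against 160, 160 and 166 CPM in wild type. NPC2 (ENSDARG00000096979, 2 identifiers), a cholesterol carrier, had no count in any, against 1.94, 1.84 and 2.08 CPM, which is at least 25.0-fold lower. Without wild-type replicate 2 or 3, 2 lysosomal members stayed higher.

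Germ cell and egg transcripts went in both directions, and their counts rest on single libraries. Of 31 tested germ plasm and primordial germ cell genes, 8 rose and 2 fell, the lower pair being the CXCR4 identifiers. That is 32.3% called, against 17% of all tested genes. SYCP1, of the synaptonemal complex, was at 18.7, 13.0 and 14.2 CPM in kdm4ab knockout libraries, against 3.08, 3.31 and 3.08 CPM in wild type, and rose by 2.39 (SE 0.199; edgeR adjusted p = 3.32e-08). The tudor genes tdrd5 and TDRD7 rose by 1.23 and 1.99, and TDRD7 was far higher in the kdm4aa knockout, at 38.6 to 44.6 CPM, than in the kdm4ab knockout at 4.48, 1.68 and 4.77 CPM. Of 45 tested egg coat and oocyte transcripts, 8 rose and 3 fell (24.4% called, against 17% of all tested genes). zp3b, an egg coat gene, was at 133, 336 and 148 CPM, against 64.3, 59.14 and 59.9 CPM in wild type, and the oocyte claudin cldnd was at 431, 2357 and 465 CPM, against 140, 178 and 145 CPM. CPEB1, a translational regulator of oocytes, rose by 0.95, and ESRP1 fell by 3.70. The egg list summed to 6509, 14257 and 6435 CPM in kdm4ab knockout libraries, against 5609, 6077 and 5767 CPM in wild type, with replicate 2 far above the rest. Without wild-type replicates 1, 2 and 3, the higher members numbered 3, 6 and 3 of the germ cell list, with 1, 2 and 1 lower. In the egg list 2, 3 and 1 were then higher and 2, 2 and 2 lower. With only the libraries of the groups compared, each list had 1 member higher and 1 lower. tdrd5 lost its call without wild-type replicate 1 or 3, zp3b without 3, cldnd without any of the 3 and TDRD7 without any single library other than kdm4ab knockout replicate 2 (edgeR adjusted p up to 0.0568, 0.0506, 0.0886 and 0.111).

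Chromatin genes were called at shares of 11.8% of H3K9 and H3K36 methyltransferases, 13% of other histone lysine demethylases and 23.8% of heterochromatin readers and silencers, against 17% of all tested genes. Among 17 tested H3K9 and H3K36 methyltransferases, setmar (2.601, 9.04 and 2.51 CPM in kdm4ab knockout libraries, against 0.484, 0.362 and 0.576 CPM in wild type) and SMYD2 (38.4, 45.05 and 34.9 CPM against 21.8, 27.6 and 24.0 CPM) rose. Among 23 other histone lysine demethylases, KDM2B (ENSDARG00000036593, 2 identifiers) and KDM1A rose and JMJD1C fell. KDM2B was at 98.0, 43.6 and 92.2 CPM, against 28.8, 29.2 and 27.5 CPM in wild type, a rise of 1.74 (SE 0.103; edgeR adjusted p = 4.92e-10). It was at 11.3 to 13.5 CPM in the kdm4aa knockout and was called between the knockouts. KDM1A was at 142, 79.0 and 138 CPM, against 65.8, 66.2 and 65.0 CPM in wild type. Of 21 heterochromatin readers and silencers, 5 fell and none rose in both fits, while 4 were called higher by edgeR without replicate 2, 4 by limma voom in both, and 0 by DESeq2 or at an unadjusted p under 0.05 in both. morc3b was at 5.69, 0 and 4.11 CPM, against 84.1, 65.7 and 78.1 CPM in wild type. The methyltransferase gene dnmt3ba was at 85.0, 49.4 and 88.2 CPM, against 179, 150 and 163 CPM, and CBX1 (ENSDARG00000004189, 2 identifiers), an HP1 protein, fell by 0.44. Without wild-type replicates 1, 2 and 3 the 5 became 0, 1 and 1. Of the chromatin genes named here, all lost their call without wild-type replicate 1 (edgeR adjusted p up to 0.104).

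Of 26 tested retinoic acid genes, 2 were higher and 1 lower (11.5% called, against 17% of all tested genes). CRABP1 (ENSDARG00000035904, 2 identifiers), a retinoic acid carrier, was at 1.81, 7.97 and 2.58 CPM in kdm4ab knockout libraries, against 0.0255, 0 and 0 CPM in wild type. The receptor raraa was at 6.88, 10.8 and 7.91 CPM, against 2.16, 2.90 and 2.35 CPM, and rose by 1.58 (SE 0.225; edgeR adjusted p = 1.8e-05). CRABP2 (ENSDARG00000030449, 2 identifiers) was at 1.37, 0 and 1.61 CPM, against 18.4, 15.01 and 16.4 CPM, and lost its call without any wild-type library or kdm4ab knockout replicate 1 (edgeR adjusted p up to 0.0868). Of 15 tested hox genes 1 rose (6.67% called), HOXC11, at 2.08, 4.27 and 3.02 CPM against 0.891, 1.42 and 0.864 CPM in wild type. It lost its call without any wild-type library or kdm4ab knockout replicate 3 (edgeR adjusted p up to 0.174). Without replicate 2, 5 of 18 tested hox genes were called higher and 1 lower, against 25.3% higher and 24.2% lower of all genes tested in that fit. The higher share was thus near that of all genes. The list median was 1.16 without replicate 2 and 1.56 with it. The hox list summed to 15.3, 16.6 and 11.5 CPM in kdm4ab knockout libraries, against 7.13, 6.60 and 6.20 CPM in wild type.

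Markers of later tissues were called in both directions. The shares called in both fits were 30.4% of neural, 28.6% of lens, 27.3% of erythroid and of notochord, 26.7% of photoreceptor, 23.1% of neural crest, 20% of somite and muscle, 14.3% of cardiac and 7.14% of endothelial genes tested, against 17% of all tested genes. Neural progenitor and neuron genes had 7 of 46 higher and 7 lower, among them SOX11 (ENSDARG00000077811, 2 identifiers) at 70.9, 23.7 and 57.8 CPM in kdm4ab knockout libraries against 331, 253 and 338 CPM in wild type. Neural crest and pigment genes had 3 of 26 higher and 3 lower, with FOXD3, snai2 and TFAP2A lower and msx1b at 5.22, 13.4 and 6.38 CPM against 0.535, 1.11 and 1.37 CPM in wild type. Erythroid genes had 1 of 11 higher and 2 lower. The lower pair was blf, at 189, 156 and 200 CPM against 783, 509 and 739 CPM in wild type, and drl, at 5.97, 5.41 and 6.28 CPM against 38.8, 22.1 and 38.4 CPM, both early mesoderm zinc finger genes. Notochord and cartilage genes had 2 of 22 higher and 4 lower, photoreceptor genes 1 of 15 and 3, lens crystallins 0 of 7 and 2, and somite and skeletal muscle genes 2 of 25 and 3. Of the lower genes in these lists, replicate 2 listed 1, 2, 2 and 1 at 0, in the same order. Cardiac muscle had 1 of 7 higher, TBX20, at 22.4, 12.2 and 20.5 CPM against 5.25, 5.51 and 4.92 CPM in wild type. Endothelial cells had 1 of 14 higher, stab2, at 23.6, 16.7 and 23.0 CPM against 6.16, 5.61 and 6.38 CPM. Without wild-type replicates 1, 2 and 3, the higher neural genes numbered 4, 4 and 3 and the higher neural crest genes 2, 2 and 1, while 2 notochord genes stayed lower each time. Somite and muscle genes had 1 lower member without each wild-type library, and lens crystallins had 0, 1 and 0. The higher photoreceptor gene lost its call without any of the 5 libraries other than kdm4ab knockout replicate 2, and the erythroid, cardiac and endothelial counts stayed the same. None of 5 hatching gland and 5 pancreas and intestine genes tested was called in both fits. Hatching gland genes gave 1 higher and 2 lower without replicate 2 and 1 in each direction by DESeq2 in both, and pancreas and intestine genes gave 1 higher without replicate 2 and none by DESeq2. At an unadjusted p under 0.05 in both edgeR fits, 1 hatching gland gene was higher and 1 lower, and 0 pancreas and intestine genes passed.

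Both knockouts were set against the same wild-type libraries, so they were compared with each other directly. Between them, 3454 of 18998 genes (18.2%) were called in both fits, with 1780 higher (9.37%) and 1674 lower (8.81%) in the kdm4ab knockout. Of 46 mesendoderm genes 18 were lower and 3 higher, of 38 blastula genes 16 were lower and none higher, and of 39 epidermal genes 14 were lower and 2 higher in the kdm4ab knockout. Of 25 yolk syncytial and liver genes 11 were lower and none higher. tbx16 was at 58.5, 28.9 and 56.4 CPM in the kdm4ab knockout, against 235, 269 and 274 CPM in the kdm4aa knockout, and was lower by -2.17 (edgeR adjusted p = 2.41e-10 without replicate 2 and 0.000988 with it). bmp7a was at 14.5, 14.5 and 13.2 CPM, against 72.1, 90.5 and 83.4 CPM in the kdm4aa knockout, and was lower by -2.56 (adjusted p = 1.86e-10 and 0.000148). cdkn1a was at 57.5, 18.2 and 69.9 CPM, against 21.6, 14.1 and 19.8 CPM, and was called only without replicate 2 (log2 1.78; edgeR adjusted p = 4.95e-08, and 0.058 with it). GADD45A was at 45.5, 62.1 and 50.7 CPM, against 19.8, 12.9 and 18.99 CPM, and was called in both (log2 1.48). GADD45B went the other way and was called in both (log2 -1.94 without replicate 2 and -1.74 with it). Of the 43 tested p53 and DNA damage genes, 4 were higher and 5 lower in the kdm4ab knockout, against 9.37% and 8.81% of all tested genes. The count of 3454 moved to 1512, 1625 and 1462 without kdm4aa knockout replicates 1, 2 and 3, and to 2263 without wild-type replicate 3.

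The calls were spread over the chromosomes. Genes were placed by symbol with a RefSeq table of GRCz12tu, a build other than the one named by the submitters. There 13.3% of tested genes on chromosome 21 and 21.2% on chromosome 20 were called in both, the lowest and highest shares. Chromosome 2, which carries kdm4ab, had 98 of 559 genes called (17.5%). Only genes whose symbol has 1 identifier could be placed (17627 of 32520). Of the 40 placed and tested genes nearest to kdm4ab, 20 on each side, 6 were higher and 2 lower, or 20% against 17% of all tested genes. The nearest of them on either side, PIF1 and pbx1a, had log2 differences of 0.23 and 0.59 and were called in neither fit. Of the 40, arhgef4 and prg4a, chosen after their values were seen, had the highest log2 differences, 3.15 and 4.26.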

How the data were processed

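Per the labels' protocols, RNA of whole embryos was extracted with Trizol, selected on poly-T beads and copied with random hexamers. The deposited counts are raw whole numbers for each of 32520 Ensembl genes in each library, and 5076 genes had none. The builds GRCz11 and danRer11 are named in the submitters' processing notes. No source used here names the aligner, counter, annotation release or strandedness, so overlapping and antisense genes and near-identical copies can share reads.

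Counts were filtered with filterByExpr, scaled by TMM and tested by the quasi-likelihood method of edgeR 4.0.16, run in R 4.3.3 (glmQLFit and glmQLFTest, 1 mean per group, two-sided, Benjamini-Hochberg over all genes tested), with all 9 libraries and with the 8 other than kdm4ab knockout replicate 2. The model was tested on simulated data. Of 100 genes changed by 1 on the log2 scale, it called 1 with 9 libraries and 84 with 8. Of 100 changed by 2, it called 35 and 99. Unchanged genes called numbered 1 of 18471 with 9 libraries and 21 of 19255 with 8. A gene not called in both fits may therefore still differ. The simulation gave each gene the same spread in all libraries and held no library with missing genes like replicate 2. Its counts with 9 libraries therefore need not hold for these data, and calls in both fits were not simulated. CPM were computed here on TMM-scaled libraries. SE is the absolute log2 value over the square root of the F statistic, so it is approximate. Levels are not compared between genes, since CPM is not per length. Replicates differed beyond sampling noise (chi-square per gene 8.31 or more in each pair). Zero groups were bounded at 3 counts per library, and intervals are Clopper-Pearson, 95%.

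Symbols covered 29201 identifiers, and 1806 symbols have more than 1. Of 1609 names in 40 lists, 1519 matched, by name or by the capital symbol without its paralog letter, where the paralog is uncertain. The members and lists were chosen with earlier results of these data known. Named were kdm4ab, kdm4aa, cyp26a1, the 12 highest and 12 lowest called genes with at least 5 CPM in 1 group, no overlap and an informative symbol, and up to 4 called members per list (up to 2 others by smallest p where fewer than 2 were called). Further names were chosen after their values were seen. Alternatives were RLE size factors, no filter, DESeq2 1.42.0, only the groups compared, limma 3.58.1 voom with sample weights, glmTreat against a fold of 1.5, a replicate block and each library left out. Leaving out kdm4aa knockout libraries was added after seeing the data. Some genes that these rules take, though counted, are not reported here.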

Additional observations from a re-analysis of the deposited data

How the results depend on the processing

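The main counts were 3232 genes called with all libraries, 9848 without kdm4ab knockout replicate 2, 3230 in both, and 3454 in both between the knockouts. RLE size factors (3292, 9865, 3290 and 3510) and no filter (2599, 10047, 2595 and 2751) stayed within 1.5 times of them. In the same order, DESeq2 gave 5468, 9989, 5249 and 5349, limma voom with sample quality weights 10034, 10297, 9670 and 9735, glmTreat against a fold of 1.5 gave 1591, 4368, 1591 and 1663, and only the libraries of the groups compared 1092, 9777, 1092 and 1259. Leaving out 1 library from the fit with all libraries gave 1219 to 9848 genes. Leaving out 1 wild-type library gave 8474 to 9446 without replicate 2, and 1219 to 1633 in both. Between the knockouts, leaving out 1 wild-type or kdm4aa knockout library gave 1462 to 2399 in both. Without replicate 2 the counts of 9848, and of 10499 between the knockouts, are calls of a single fit. A gene called in both fits therefore cannot lose its call when replicate 2 is left out, and keeping it there is no result. A lone fit without a library assumes that 2 libraries, or in the second fit 1, vary like the other groups. The kdm4ab transcript was called under all settings (log2 -6.92 to -5.86).

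Same-numbered replicates of the kdm4ab knockout and wild type had correlations of their deviations from the group mean of 0.0674, 0.0237 and -0.0854. With wild-type replicates 1, 2 and 3, knockout replicate 1 gave 0.0674, -0.0138 and -0.0590. Knockout replicate 3 gave 0.109, -0.0305 and -0.0854, and replicate 2 gave the opposite signs. Since replicate 2 weighs on the group mean, this could not decide whether the numbers pair libraries. The main fits took no pairing. With a replicate block, 1807 genes were called with all libraries, 9417 without replicate 2, 1807 in both and 2012 in both between the knockouts.

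Of the 3230 genes, DESeq2 called 3220, RLE 3087 and the fit without wild-type replicate 3 called 1214. Of 138 named genes called in both, none reversed and 58 lost the call under at least 1 setting, 41 of them when a library was left out. The cause was not tested. Replicate 2 had no count for 38.8% of genes at 1 to 5 CPM, which limits what the fit with all libraries can show at such levels.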

Other observations

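Circadian clock genes had 6 of 37 tested members higher and 3 lower in the kdm4ab knockout (24.3% called, against 17% of all tested genes). nfil3-5, related to a repressor of clock output, was at 5.26, 1.34 and 5.38 CPM in kdm4ab knockout libraries, against 23.7, 18.7 and 22.2 CPM in wild type, and fell by 2.01 on the log2 scale. PER1 (ENSDARG00000012499, a symbol with 2 identifiers), a core clock repressor, was at 35.4, 26.7 and 34.1 CPM, against 87.5, 76.2 and 75.7 CPM in wild type, and fell by 1.196. ciarta, an inhibitor of the clock activators, was at 279, 241 and 241 CPM, against 147, 149 and 148 CPM in wild type, and rose by 0.82. tefa, which encodes a factor of clock output, was at 35.1, 42.3 and 31.4 CPM, against 19, 18.9 and 18.1 CPM, and rose by 0.84. All 4 were chosen among genes called in both fits by edgeR, so the separation of knockout and wild-type values is no added result. The count of higher members was 3 without wild-type replicate 1 or 3. The hour of collection was not stated.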
